A study of Homo sapiens with 4 samples.

Results

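The sterol and fatty acid synthesis pathway was followed in 35 genes chosen by name and role, with earlier results of these data known. The list held the SREBP transcription factors with the proteins that hold or carry them, and 2 sterol transport proteins. It also held the enzymes from acetyl-CoA to cholesterol and those from acetyl-CoA to unsaturated fatty acids. Of the 35 genes, 34 were among the 16813 genes listed in at least 1 library. Those 34 were also among the 13148 genes that passed the filter on low counts and were tested. The sterol transfer protein gene *STARD4* was listed in none of the 4 libraries, so it was given 0 counts and was not tested. RNA sequencing compared PC9 cells, an *EGFR*-mutant lung adenocarcinoma line labelled wild type and control, with PC9OR, a derivative of PC9 that is resistant to the EGFR inhibitor osimertinib and is also labelled wild type. Both lines were grown in RPMI 1640 with 10% fetal bovine serum, and the labels name no drug in the medium. There were 2 biological replicates of each line, and separate cultures are not described, so p-values measure the spread between these libraries. Because there is 1 resistant line, resistance cannot be told apart from other features of that line.

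SREBP proteins are made in the endoplasmic reticulum membrane, where SCAP senses sterol and INSIG proteins hold the complex back. When sterol is short, SCAP escorts the SREBP to the Golgi, where proteases release the part that enters the nucleus and switches on genes of sterol and fatty acid synthesis. The *SREBF2* product is best known for sterol genes and the *SREBF1* product for fatty acid genes, and cancer cells use both pathways to build membranes.

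The libraries held between 23201307 and 32203998 expected counts (estimated read numbers that need not be whole), and 3 counts corresponded to between 0.0932 and 0.129 CPM (counts scaled to a common library size). All 5 epithelial markers reached 1 FPKM (a level per transcript length and library size). Their summed levels were 2091 to 2391 FPKM in PC9 and 4528 to 4669 FPKM in PC9OR libraries. The markers did not move together. The keratins *KRT8*, *KRT18* and *KRT19* were higher in PC9OR, with log2 fold changes of 1.28, 1.13 and 0.96. *CDH1* was lower at -1.46, and *EPCAM* was at -0.01. The lung lineage markers *NKX2-1* and *NAPSA* stayed under 1 FPKM and *SFTPB* was listed in no library. Of fibroblast markers 0 of 3 reached 1 FPKM, of endothelial markers 1 of 3 (*CDH5*), and of blood markers 1 of 4 (*CD68*). Whether these marker differences bear on the results that follow was not tested. The biological coefficient of variation was 0.241 between PC9 replicates and 0.104 between PC9OR replicates. The log2 difference of PC9 replicate 2 minus replicate 1 had a rank correlation of -0.40 with transcript length, taken over genes that are not independent of each other. The same correlation was -0.01 for the PC9OR replicates and -0.35 for PC9OR minus PC9. Fold changes of the members are therefore also given from a second fit whose offsets remove trends in length and GC content, called the offset fit from here.

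The gene regulatory element after which SREBP is named was looked for in promoters, and the single member promoter that held it is shown here because its gene encodes one of the factors itself. Of the member genes, 31 had 43 promoters in the RefSeq table (GRCh38.p14, 250 bases before to 50 after each start). *ACAT2*, *FDFT1*, *SQLE* and *FASN* had no promoter there and were not searched. The sterol regulatory element TCACNCCAC, searched on both strands, was in 1 of the 43, or 2.33%, against 1.13% of all 35116 promoters. In the sequence of the 250 bases before the *SREBF2* start, on the plus strand of chromosome 22, capitals mark this element at position -133 from the start and an inverted CCAAT box, the letters bound by NF-Y, at position -106.
SREBF2 promoter, chr22:41832855-41833104: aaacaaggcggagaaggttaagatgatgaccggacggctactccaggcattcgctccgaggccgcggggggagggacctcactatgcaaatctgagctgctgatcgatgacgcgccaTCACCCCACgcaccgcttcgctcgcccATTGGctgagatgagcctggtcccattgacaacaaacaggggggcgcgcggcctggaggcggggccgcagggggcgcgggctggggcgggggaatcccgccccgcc
The letters CCAAT were in 58.1% of member promoters and 34.6% of all promoters, and GGGCGG, the letters bound by Sp1, in 86.0% and 45.0%. The E-box CACGTG was in 9.30% of member promoters and 7.26% of all. These shares describe letters in a window, and a promoter without a match may hold other forms of an element. The set of all promoters was not limited to genes expressed in these cells, so the shares are not a comparison with other expressed genes.

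Calls in the sterol arm were higher and most calls in the fatty acid arm were lower in PC9OR cells. Of the 17 enzymes of the sterol arm 5 were higher and 0 lower (edgeR, also 0 lower at an unadjusted p under 0.05 and by DESeq2, and 2 by an MA-plot-based model). Of the 11 enzymes of the fatty acid arm 1 was higher and 5 were lower. Of all genes tested 15.6% were higher and 20.8% lower. In the offset fit the sterol arm had 6 higher and 0 lower, and the fatty acid arm 2 higher and 4 lower. All genes were then higher in 22.0% and lower in 19.9% of cases. The difference between the arms was not tested. Over the whole pathway, 7 members were higher at an adjusted p under 0.05, beside 15.6% of all genes tested, and 8 members were lower, beside 20.8% of all genes. As shares of the 34 members these were 20.6% and 23.5%, near the background in both directions. The 7 higher genes were *ACAT2*, *MVK*, *IDI1*, *NSDHL* and *HSD17B7* of the sterol arm, the anchor *INSIG2* and the acyl-CoA synthetase *ACSL3*. The 8 lower genes were *SREBF1*, *SREBF2*, *NPC1*, *ACACA*, *FASN*, *ELOVL6*, *FADS1* and *FADS2*. More than 2-fold differences with the same adjusted p were reached by 2 higher members, *ACAT2* and *NSDHL* (6.13% of all genes), and by 3 lower members, *ACACA*, *FASN* and *NPC1* (11.6% of all genes). The median log2 fold change was 0.31 over the members and 0.01 over all genes tested.

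In the offset fit, 10 members were higher, beside 22.0% of all genes, and 6 were lower, beside 19.9%. The added calls were *INSIG1*, *HMGCS1* and *ACSS2*, while *SREBF2* and *FADS2* were no longer called. By CPM alone, both PC9OR libraries lay above both PC9 libraries for 18 members, against 39.6% of all genes, and below them for 11 members, against 38.2%. The libraries of the lines overlapped for the other 5, *SCAP*, *FDFT1*, *LSS*, *EBP* and *LPIN1*. The counts of called members rested on few libraries, and on which pair of replicates was left to set the spread. Without a PC9OR library that is the PC9 pair, which varied more. Without PC9 replicate 2, 14 members and 3932 of 13574 genes tested were higher. Without PC9OR replicate 1, 2 members were higher and 5 lower, beside 525 and 1177 of 13527 genes. Without PC9OR replicate 2, 4 were higher and 3 lower, beside 527 and 1191 of 13509 genes.

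**Figure D1:**
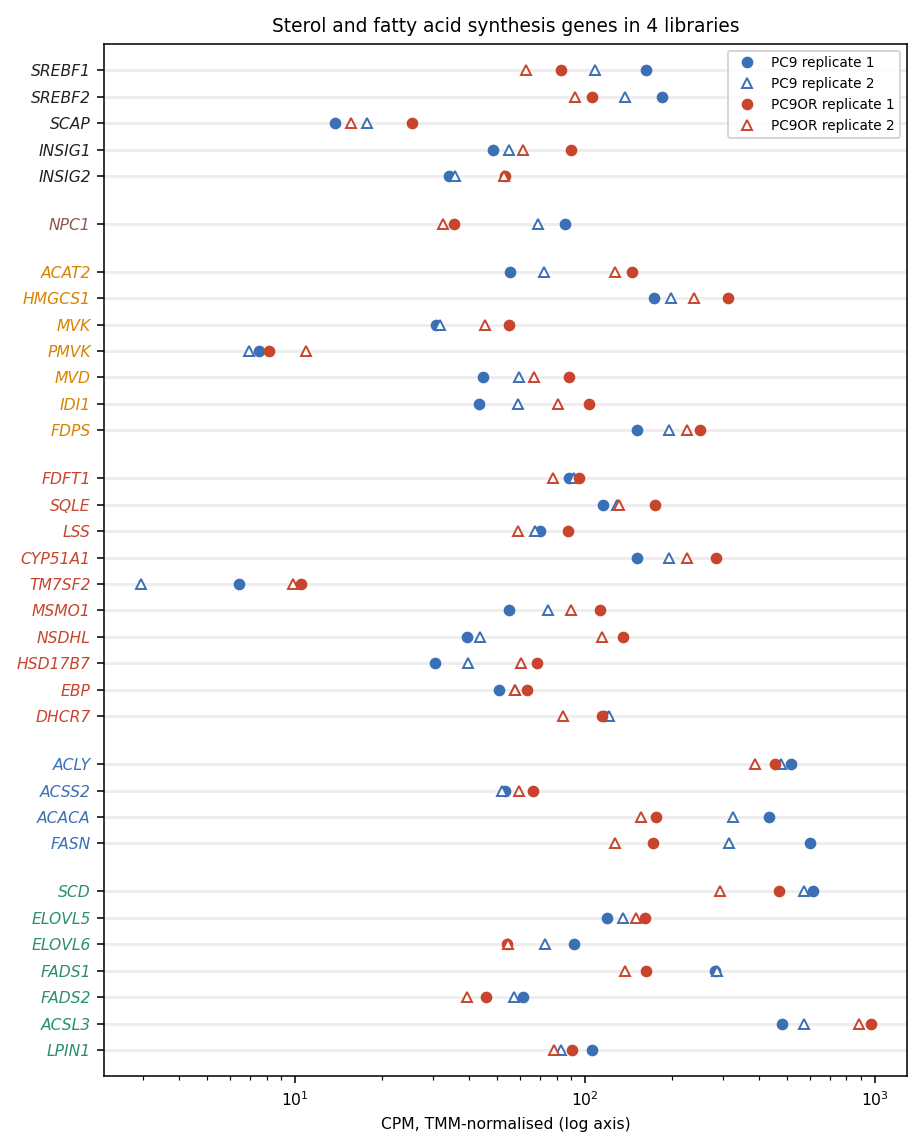
Each row is a member gene, grouped and coloured by role, and the log axis gives TMM-normalised CPM in each of the 4 libraries (blue PC9, red PC9OR; circles replicate 1, triangles replicate 2). *NSDHL* sits at 39.3 and 43.4 CPM in PC9 and at 136 and 115 CPM in PC9OR, while *FASN* sits at 601 and 315 CPM in PC9 and at 172 and 127 CPM in PC9OR.

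Transcripts of both SREBP genes were lower in PC9OR cells. *SREBF1* measured 162 and 108 CPM in PC9 replicates 1 and 2 and 83.1 and 62.7 CPM in the PC9OR replicates. The PC9OR libraries were the lowest 2 and did not overlap the PC9 libraries. The log2 fold change was -0.89 (standard error 0.246, edgeR adjusted p = 0.0437), and it was -0.62 in the offset fit. The *SREBF1* call was lost on the log2(FPKM + 1) scale (-0.87), without PC9 replicate 1 (log2 fold change -0.58), without PC9OR replicate 1 (-1.11) and without PC9OR replicate 2 (-0.70). *SREBF2* measured 185 and 138 CPM in PC9 and 106 and 92.8 CPM in PC9OR libraries, again with every PC9OR library below every PC9 library. Its difference of -0.70 (standard error 0.178, edgeR adjusted p = 0.0363) shrank to -0.19 with the offsets and was then not called. Leaving out either PC9OR library also ended the *SREBF2* call, with log2 fold changes of -0.79 without replicate 1 and -0.60 without replicate 2. A bulk library does not tell fewer cells that carry a transcript from less of that transcript per cell, here and for the genes that follow.

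Of the 3 partners of the SREBP proteins, 1 was higher, beside 15.6% of all genes, and the others were not called. *INSIG2*, an anchor that retains SCAP, measured 34.0 and 35.6 CPM in PC9 and 53.3 and 52.8 CPM in PC9OR libraries. The replicates of each line lay close together and far from the other line. *INSIG2* was higher by a log2 fold change of 0.61 (standard error 0.108, edgeR adjusted p = 0.0157), or 0.38 with offsets, and the call was lost without either PC9OR library at 0.61 and 0.62. *INSIG1*, itself a classical SREBP target, measured 48.3 and 54.9 CPM in PC9 against 89.9 and 61.5 CPM in PC9OR. The lines did not overlap, yet PC9OR replicate 2 lay nearer to PC9 than to its own partner. The log2 difference of *INSIG1* was 0.55 (standard error 0.210, edgeR adjusted p = 0.0932), and with the offsets it was 0.68 and passed the test. The sterol sensor *SCAP* measured 13.7 and 17.7 CPM in PC9 and 25.4 and 15.7 CPM in PC9OR, so the lines overlapped, and its difference of 0.38 (edgeR adjusted p = 0.317) did not pass.

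*NPC1*, the late endosomal protein that releases cholesterol taken up with lipoproteins, was lower in PC9OR cells. Its transcript measured 85.5 and 68.8 CPM in PC9 and 35.6 and 32.5 CPM in PC9OR libraries. Both PC9OR values were under every PC9 value by a wide margin. *NPC1* was 2.27-fold lower, a log2 fold change of -1.18 (standard error 0.152, edgeR adjusted p = 0.00866), and the offsets left -0.87. It was called lower in each of the 16 alternative fits.

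The mevalonate and isoprenoid steps build farnesyl diphosphate from acetyl-CoA. All 7 of their enzymes had a log2 fold change above 0, beside 6685 of the 13148 genes tested, and their median was 0.57. Of the 7, 3 passed the test as higher, beside 15.6% of all genes, or 4 under the offsets, beside 22.0%. *ACAT2*, the cytosolic thiolase that joins acetyl-CoA units, measured 55.4 and 72.7 CPM in PC9 and 146 and 127 CPM in PC9OR libraries. The lines were separated by more than either pair of replicates. *ACAT2* was 2.13-fold higher (log2 fold change 1.09, standard error 0.172, edgeR adjusted p = 0.0122), with 0.86 under the offsets, and was called in all 16 alternative fits. On GRCh37, 615 bases of its span are shared with *TCP1* on the opposite strand, a gene with a mean of 589 CPM over the libraries, and 485 bases with *SOD2* (151 CPM), also on the opposite strand. The mevalonate kinase gene *MVK* measured 30.8 and 31.7 CPM in PC9 and 54.8 and 45.2 CPM in PC9OR. It was higher by 0.68 (standard error 0.138, edgeR adjusted p = 0.0213), 0.67 under the offsets, though not without PC9OR replicate 1 (0.54) or replicate 2 (0.82). *IDI1*, the isomerase that interconverts the isoprenoid units, measured 43.1 and 59.0 CPM in PC9 and 104 and 81.2 CPM in PC9OR libraries. The lower PC9OR library was still above the higher PC9 library. *IDI1* rose by 0.85 (standard error 0.209, edgeR adjusted p = 0.0325), 0.75 under the offsets, and the call was lost without PC9OR replicate 1 (0.67).

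*HMGCS1*, the synthase that makes HMG-CoA, measured 173 and 199 CPM in PC9 and 311 and 238 CPM in PC9OR libraries. Its groups did not overlap, but the PC9OR replicates were far apart. The difference of 0.56 (standard error 0.170) missed the threshold at an edgeR adjusted p of 0.0547, while the fit with offsets gave 0.81 and called it. *HMGCS1* has the longest transcript of the sterol arm, at 5428 bases. The remaining genes of these steps were not called in either fit: *PMVK* at 0.40, *MVD* at 0.57 and *FDPS*, the farnesyl diphosphate synthase, at 0.46.

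Among the 10 enzymes that turn farnesyl diphosphate into cholesterol, 2 were higher and 8 had no call in edgeR's test. This is near the 15.6% of all genes that were higher. Under the offsets 2 were higher as well, beside 22.0% of all genes. *NSDHL*, a C-4 sterol dehydrogenase encoded on chromosome X, had the largest rise of any member. It measured 39.3 and 43.4 CPM in PC9 and 136 and 115 CPM in PC9OR libraries. Both PC9OR libraries lay far above the PC9 pair. *NSDHL* was 3.03-fold higher, with a log2 fold change of 1.60 (standard error 0.138, edgeR adjusted p = 0.005), and 1.48 under the offsets. All 16 alternative fits called it, and 95.9% of the genes tested had a smaller log2 fold change. *HSD17B7*, the reductase that acts next to NSDHL in C-4 demethylation, measured 30.4 and 39.6 CPM in PC9 and 68.3 and 60.3 CPM in PC9OR. It rose by 0.88 (standard error 0.170, edgeR adjusted p = 0.0191) and by 0.57 under the offsets, and its call was lost without PC9OR replicate 1 (0.79). A near-identical pseudogene of *HSD17B7* could share its reads, which leaves its level uncertain.

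The third C-4 demethylation enzyme, the methyl oxidase *MSMO1*, did not pass at 0.64 (edgeR adjusted p = 0.0606), and neither did the lanosterol demethylase *CYP51A1* at 0.55 (edgeR adjusted p = 0.0693). *TM7SF2*, a sterol reductase, was at the bottom of the range with 6.40 and 2.95 CPM in PC9 and 10.5 and 9.85 CPM in PC9OR. Its replicates in PC9 differed more than those of any other sterol enzyme, and its difference of 1.13 (standard error 0.398, edgeR adjusted p = 0.0783) did not pass. The other 5 enzymes had smaller differences: *SQLE*, the squalene epoxidase, 0.32, *LSS*, the lanosterol synthase, 0.10, *EBP* 0.15, *FDFT1*, the squalene synthase, -0.06, and *DHCR7*, which makes the last reduction to cholesterol, -0.26. The sign of *EBP* turned to -0.045 under the offsets, that of *LSS* turned without PC9OR replicate 1 (-0.21) and that of *FDFT1* without PC9OR replicate 2 (0.090).

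**Figure D2:**
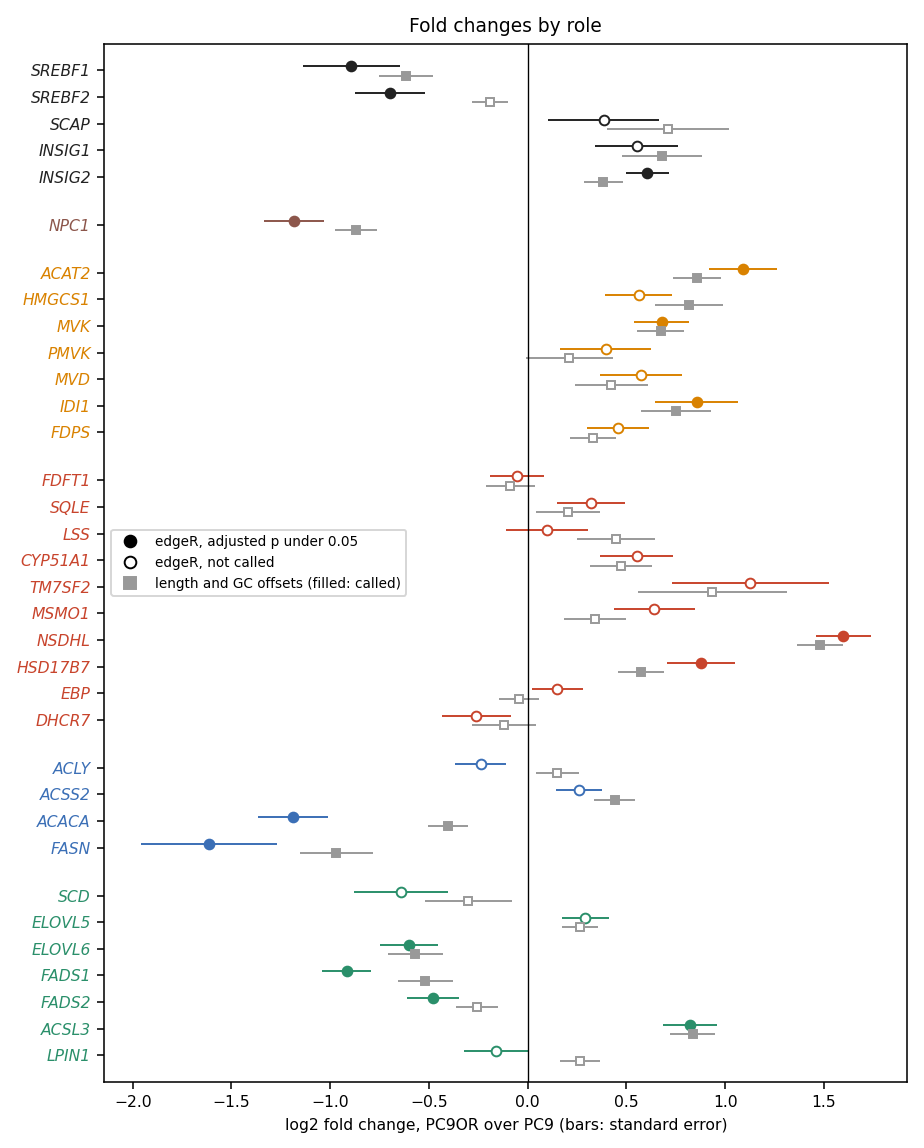
The horizontal axis gives the log2 fold change of PC9OR over PC9 for each member with its standard error, as circles from edgeR and as grey squares from the offset fit, and filled symbols passed an adjusted p under 0.05. The 7 mevalonate and isoprenoid genes lie right of 0 in both fits, and *ACACA* moves from -1.19 to -0.40 and *FASN* from -1.61 to -0.97.

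Of the 4 genes for acetyl-CoA supply and fatty acid synthesis, *FASN* and *ACACA* were lower in PC9OR cells, beside 20.8% of all genes. *FASN*, the fatty acid synthase that makes palmitate, measured 601 and 315 CPM in the PC9 replicates and 172 and 127 CPM in the PC9OR replicates. PC9 replicate 1 was far above its partner, and both PC9OR libraries lay below both. The gene was 3.06-fold lower (log2 fold change -1.61, standard error 0.344, edgeR adjusted p = 0.0237) and -0.97 under the offsets. It was called in all 16 alternative fits, but its size turned on the PC9 library kept, from -1.08 without replicate 1 to -2.02 without replicate 2. *ACACA*, the acetyl-CoA carboxylase that makes malonyl-CoA for it, measured 433 and 324 CPM in PC9 and 176 and 156 CPM in PC9OR libraries. No library of one line reached the range of the other. *ACACA* was 2.28-fold lower at -1.19 (standard error 0.175, edgeR adjusted p = 0.011), and called in all 16 alternative fits, though its size under the offsets was -0.40.

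Neither enzyme that supplies acetyl-CoA was called lower. *ACLY*, which makes acetyl-CoA from citrate, measured 514 and 478 CPM in PC9 and 453 and 388 CPM in PC9OR, a difference of -0.24 (edgeR adjusted p = 0.190) that turned to 0.15 under the offsets. *ACSS2*, which makes it from acetate, measured 52.9 and 52.0 CPM in PC9 and 66.4 and 59.1 CPM in PC9OR libraries. Its lines did not overlap, and its difference of 0.26 (standard error 0.118, edgeR adjusted p = 0.138) became 0.44 under the offsets, where it was called higher.

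Of the 7 enzymes that elongate, desaturate or activate fatty acids, *LPIN1* included, 3 were lower and 1 was higher. All genes were lower in 20.8% and higher in 15.6% of cases. Under the offsets 2 of the 7 were lower and 1 higher, beside 19.9% and 22.0% of all genes. *FADS1*, the delta-5 desaturase of polyunsaturated fatty acids, measured 282 and 286 CPM in PC9 and 163 and 138 CPM in PC9OR libraries. The PC9 replicates were nearly equal, and both PC9OR libraries were well below them. *FADS1* was lower by a log2 fold change of -0.92 (standard error 0.125, edgeR adjusted p = 0.00956) and was at -0.52 under the offsets, and its call was lost without PC9OR replicate 2 (-0.80). *FADS2*, the delta-6 desaturase, measured 61.3 and 57.0 CPM in PC9 and 45.6 and 39.3 CPM in PC9OR. Its fall of -0.48 (standard error 0.129, edgeR adjusted p = 0.0416) was lost under the offsets (-0.26), with no filter on low counts, and without PC9OR replicate 1 (-0.58) or replicate 2 (-0.37). On GRCh37 *FADS1* (chromosome 11, 61567099 to 61596790, minus strand) lies within the span of *FADS2* (61560452 to 61634826, plus strand). Spans here and below are whole genes with introns, and the overlap of exons was not measured. Whether the counting used strand is not given in the sources used here. Whether reads were split between the 2 genes was not tested. *FADS2* also shares 4259 bases on its own strand with *FEN1*, a gene with a mean of 210 CPM. The spans of *SREBF1*, *NPC1*, *MVK* and *CYP51A1* overlap a tested gene on the opposite strand (*RAI1*, *RMC1*, *MMAB* and *AKAP9*), and that of *TM7SF2* shares 18 bases with *VPS51* on its own strand.

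*ELOVL6*, which elongates palmitate to stearate, measured 91.8 and 72.9 CPM in PC9 and 54.1 and 54.5 CPM in PC9OR libraries. The PC9OR replicates were nearly equal and lay below both PC9 libraries. It was lower by -0.60 (standard error 0.148, edgeR adjusted p = 0.0329) and by -0.57 under the offsets, and the call was lost without PC9OR replicate 1 (-0.59) or replicate 2 (-0.60). *SCD*, the delta-9 desaturase that makes oleate, measured 614 and 573 CPM in PC9 and 468 and 293 CPM in PC9OR. Both PC9OR libraries were lower but far apart, and -0.64 (standard error 0.237, edgeR adjusted p = 0.0867) did not pass. *ELOVL5*, which elongates polyunsaturated chains, had a difference of 0.29, and the phosphatidate phosphatase *LPIN1* one of -0.16 that became 0.26 under the offsets and 0.024 without PC9 replicate 1. Neither was called.

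*ACSL3*, which activates long-chain fatty acids to acyl-CoA on lipid droplets and the endoplasmic reticulum, was the 1 higher gene of this group. It measured 479 and 569 CPM in PC9 and 970 and 883 CPM in PC9OR libraries. The lower PC9OR library was still far above both PC9 libraries. *ACSL3* rose by 0.82 (standard error 0.135, edgeR adjusted p = 0.0135) and by 0.84 under the offsets, and the call was lost without PC9OR replicate 1 (0.76) or replicate 2 (0.90).

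Per transcript length, the order of the members changed between the lines. The highest in PC9 cells were *FDPS* at 96.7 ± 16.1 FPKM (SD, n = 2), *ACSL3* at 87.0 ± 9.19, *ACLY* at 81.7 ± 5.57 and *SCD* at 77.4 ± 5.08 FPKM, neighbours in an order whose spreads overlap. In PC9OR cells *ACSL3* led at 150 ± 12.1 FPKM, followed by *FDPS* at 132 ± 11.1 FPKM, which overlap within their spread, then *ACLY* at 67.6 ± 8.25 and *ACAT2* at 65.7 ± 7.45 FPKM, which also overlap. *FASN* went from rank 7 of 34 at 38.4 ± 17.6 FPKM to rank 24 at 12.2 ± 2.69 FPKM. *NSDHL* went from rank 20 at 19.8 ± 1.09 FPKM to rank 5 at 59.4 ± 7.92 FPKM. The lowest levels in both lines were those of *SCAP* (2.74 ± 0.410 and 3.53 ± 1.22 FPKM) and *TM7SF2* (2.23 ± 1.21 and 4.74 ± 0.297 FPKM).

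The arms of the pathway also differed in transcript length. The median length was 1857 bases for the mevalonate and isoprenoid genes and 2187 bases for the squalene and sterol genes, against 6406 bases for acetyl-CoA supply and fatty acid synthesis. All genes tested had a median log2 fold change of 0.46 below 1500 bases and -0.43 at 5000 bases or more, and with the offsets these became 0.08 and 0.05. The 8 members between 1500 and 2500 bases had a median of 0.78, above the 0.16 of all genes of that length, and 0.62 under the offsets. The 6 members of 5000 bases or more had a median of -0.67 and of -0.25 under the offsets. With the offsets the median was 0.67 over mevalonate and isoprenoid genes, 0.39 over squalene and sterol genes, -0.13 over acetyl-CoA supply and fatty acid synthesis and -0.26 over elongation, desaturation and activation, beside 0.06 over all genes.

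**Figure D3:**
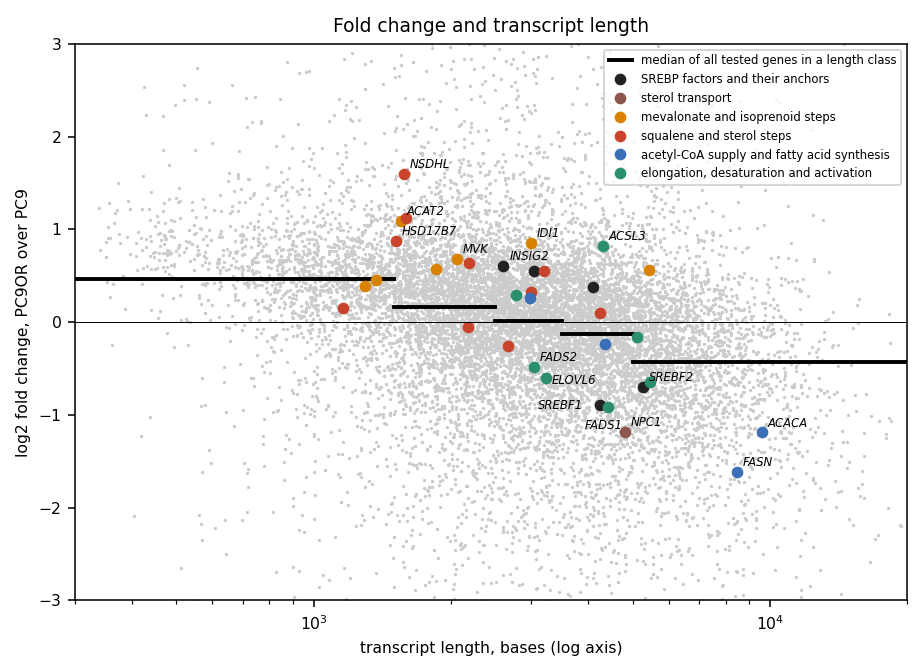
Each grey point is a tested gene, with transcript length in bases on a log axis and the log2 fold change of PC9OR over PC9 on the vertical axis, which shows -3 to 3 and leaves out points beyond it. Coloured points are members by role and black bars the median of all genes in a length class, which runs from 0.46 for the shortest to -0.43 for the longest class.

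The PC9OR replicates differed from each other across nearly the whole pathway. PC9OR replicate 1 was above replicate 2 in 32 of the 34 members (94.1%), against 46.7% of all genes tested, with a median log2 difference of 0.23 over the members and -0.01 over all genes. The exceptions were *PMVK* and *ELOVL6*. The widest differences were those of *SCAP* (0.70), *SCD* (0.67), *LSS* (0.57) and *INSIG1* (0.55). With CPM adjusted by the offsets, replicate 1 was again above replicate 2 in 32 members, by a median of 0.23. Members share these 2 libraries, so the count describes this pair of libraries and is given without a test. In PC9 cells replicate 1 was above replicate 2 in 14 members (41.2%), against 49.5% of all genes.

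**Figure D4:**
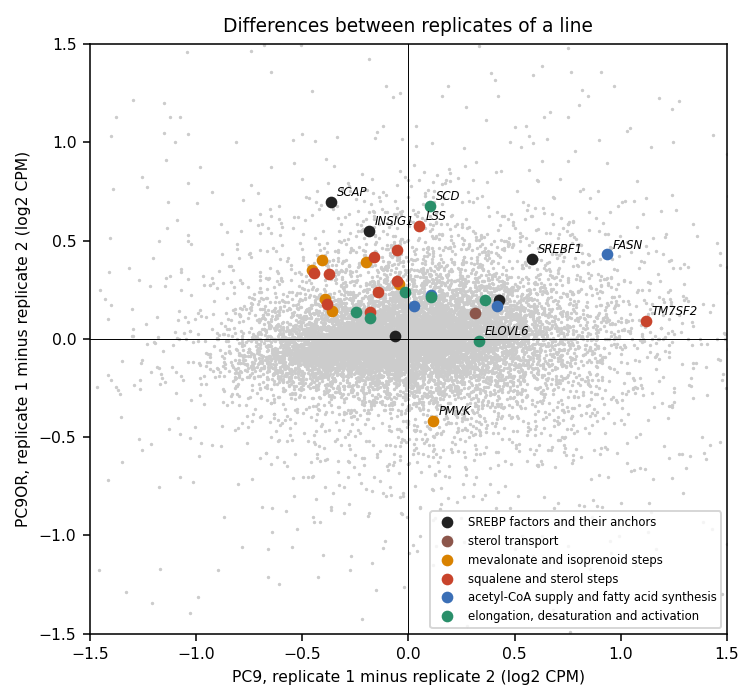
The axes give the log2 CPM difference of replicate 1 minus replicate 2 within PC9 (horizontal) and within PC9OR (vertical), both cut at -1.5 and 1.5, for all tested genes in grey and for the members coloured by role. The members lie above 0 on the vertical axis in 32 of 34 cases, while on the horizontal axis 14 lie right of 0.

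Genes around the pathway were followed in 7 further lists, whose counts stand beside 15.6% of all genes higher and 20.8% lower by edgeR, or 22.0% and 19.9% under the offsets. All 41 calls in these lists kept their sign whichever library was left out. Fewer calls were kept without a PC9OR library than without a PC9 library. Without a PC9OR library the spread is set by the PC9 pair, whose biological coefficient of variation was 0.241. Without a PC9 library it is set by the PC9OR pair, at 0.104. Loss of a call therefore does not show that a difference rests on 1 PC9OR library. Of 9 genes for SREBP cleavage and turnover 2 were lower and 0 higher by edgeR (0 at an unadjusted p under 0.05 and by DESeq2, 3 by the MA-plot-based model and 2 in the offset fit). One was *MBTPS2*, the site-2 protease that makes the final cut of SREBP, at 57.2 and 54.4 CPM in PC9 and 17.6 and 21.4 CPM in PC9OR. The PC9OR libraries did not come near the PC9 range, and the log2 fold change was -1.51 (standard error 0.143, edgeR adjusted p = 0.00547), -1.39 under the offsets. The other was the ubiquitin ligase *RNF145* at -0.48. *MBTPS1*, the protease of the first cut, was not called at 0.11.

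Of 11 sterol uptake and trafficking genes 6 were lower and 1 higher, beside 20.8% and 15.6% of all genes, and all 7 calls were kept whichever library was left out. The higher gene, *NPC2*, encodes the lysosomal protein that hands cholesterol to NPC1, and it measured 99.9 and 131 CPM in PC9 and 422 and 426 CPM in PC9OR. Its log2 fold change of 1.87 (standard error 0.163, edgeR adjusted p = 0.005) stood opposite to the -1.18 of *NPC1*. The lower genes were the lipoprotein receptors *SCARB1* (-1.27), *VLDLR* (-1.46), *LRP1* (-2.12) and *LRP8* (-1.54), and the sterol transfer proteins *OSBP* (-1.31) and *GRAMD1B* (-4.54). *GRAMD1B* measured 50.3 and 31.2 CPM in PC9 but 0.749 and 2.75 CPM in PC9OR libraries. Its PC9OR values rest on 23.7 and 88.2 expected counts, and the log2 fold change was -3.88 without PC9OR replicate 1 and -5.75 without replicate 2. Under the offsets these 6 log2 fold changes ran from -3.80 to -0.86 and remained past the test. The receptors were then at -1.11 (*SCARB1*), -1.20 (*VLDLR*), -0.87 (*LRP1*) and -0.86 (*LRP8*), so *LRP1* no longer had the largest fall among them.

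In the isoprenoid branch, which makes dolichol, ubiquinone and prenyl groups, 2 of 13 were higher and 2 lower, or 3 and 4 under the offsets, among them *NUS1*, a subunit of the dolichol-making enzyme, at -1.12. Of 7 sterol export and LXR target genes 2 were higher and 2 lower. The largest difference there was that of the phosphodiesterase *SMPDL3A*, at 2.56 and 2.74 CPM in PC9 and 10.3 and 10.2 CPM in PC9OR libraries, a log2 fold change of 1.95. Both lower calls, of the exporters *ABCA1* (-0.64) and *ABCG1* (-0.73), were lost under the offsets, where they were at 0.18 and -0.52.

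Of 12 esterification and lipid droplet genes 3 were higher and 4 lower, or 3 and 3 under the offsets. *LPIN2*, a phosphatidate phosphatase, measured 7.51 and 12.7 CPM in PC9. It was listed in neither PC9OR library and was given 0 counts there. With PC9OR set at a floor of 3 counts per library it was 107-fold lower, which is not a lower bound. Unlisted genes can differ between replicates by more than that floor. *LPCAT3* of the export list was unlisted in PC9OR replicate 1 and had 51.95 expected counts in replicate 2. The triglyceride lipase *PNPLA2* (-2.64, and -1.91 without PC9 replicate 1) and the monoglyceride lipase *MGLL* (-1.04) were also lower. Among 14 partners of fatty acid synthesis 1 was higher and 6 lower, or 2 and 6 under the offsets. *ACACB*, another acetyl-CoA carboxylase gene, measured 4.31 and 2.81 CPM in PC9 and 4.15 and 3.97 CPM in PC9OR. It was not called by edgeR at 0.19, and was called higher under the offsets at 1.06. The largest change was that of the glucose-responsive factor *MLXIP*, at 117 and 51.9 CPM in PC9 and 13.2 and 13.1 CPM in PC9OR. The PC9 replicates were far apart, and its log2 fold change of -2.68 was -1.99 without PC9 replicate 1, -3.17 without PC9 replicate 2 and -1.82 under the offsets. It was the only one of these 7 calls kept without either PC9OR library. Of 17 fatty acid oxidation genes, which run the reverse of synthesis, 8 were higher and 2 lower, beside 15.6% and 20.8% of all genes, or 10 and 2 under the offsets, beside 22.0% and 19.9%. Without PC9OR replicate 1 only *HADHB* of the 8 was still called by edgeR, and without PC9OR replicate 2 no call among them was kept, although all 8 stayed above 0. The 8 included *HADHA* (0.40) and *HADHB* (0.95), the subunits of the mitochondrial trifunctional protein, and the acyl-CoA dehydrogenases *ACADM* (0.53), *ACADVL* (0.58) and *ACADS* (0.99). The lower pair was *CPT1A* (-0.94), which admits fatty acids to mitochondria, and the nuclear receptor *PPARD* (-1.86). The median log2 fold change of the oxidation list was 0.40, and 0.30 under the offsets.

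**Figure D5:**
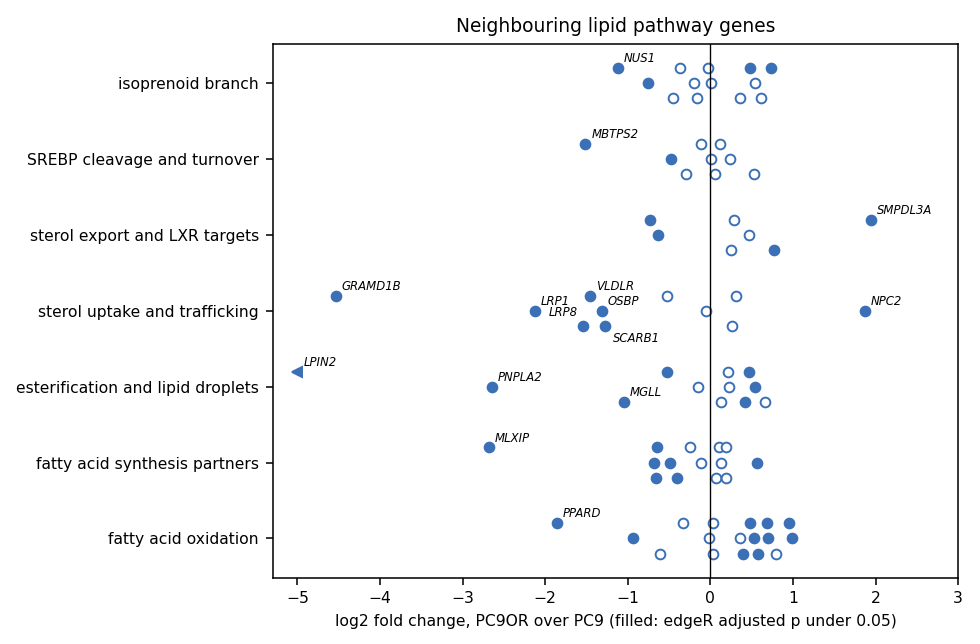
Each point is a tested gene of a neighbouring list, placed by its log2 fold change of PC9OR over PC9, and filled points passed an edgeR adjusted p under 0.05. *LPIN2*, with 0 counts in PC9OR, is drawn as an arrow at the left edge; 6 of 11 uptake and trafficking genes are filled on the left and 8 of 17 oxidation genes on the right.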

How the data were processed

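RNA of PC9 and PC9OR cells was sequenced from libraries of a stranded kit, 2 per line. The authors deposited an expected count, an FPKM value and a transcript length for each gene and library, and per the submitters' processing notes used Bowtie2 2.2.5, RSEM 1.2.12 and GRCh37. The study's methods name SOAP for read filtering and DEGseq for this comparison. A gene absent from a library's table was given 0 counts. Symbols matched 99.66% of the genes, and GC content (GENCODE on GRCh37) 96.7%.

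The expected counts were rounded and then tested by edgeR 4.0.16 under R 4.3.3 (TMM, filterByExpr, quasi-likelihood test, PC9OR against PC9, no covariates). A call is a Benjamini-Hochberg adjusted p under 0.05 over the 13148 genes tested. Standard errors are of the log2 fold change. Offsets for length and GC content came from smooth curves, 1 set per library (mgcv 1.9.3). The precision is limited by 2 libraries a line; floors of 3 counts cover counting error only.

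The members and lists were chosen with earlier results of these data known. Values per library are given for SREBP factors and their partners and for members called in either fit, and other list genes are named when called and more than 2-fold changed; those named beyond this were chosen after their values were seen. Same-numbered replicates were not paired, because no source links them, and the correlation of their deviations from the line means was 0.06 across genes. Alternatives were DESeq2 1.42.0 size factors and its Wald test, library totals, an MA-plot-based model on pooled replicates written after DEGseq, no filter, at least 10 counts in every library, limma 3.58.1 on log2(FPKM + 1) and log2(FPKM + 0.1), the replicate block, both kinds of offsets, and each library left out in turn, which leaves a line with 1 library that is assumed to vary like the other line. Some single genes are not reported here.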

Additional observations from a re-analysis of the deposited data

How the results depend on the processing

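With the replicate block 13 members were higher, against 7 without it, and 9 lower, with 2593 and 2946 of all genes against 2056 and 2734; the libraries share only a number, and the 7 were among the 13. DESeq2's Wald test called 14 members higher and 9 lower, and 2439 and 3030 of all genes. Pooling the replicates in the MA-plot-based model called 21 members higher and 13 lower, and 5594 and 5459 of all genes. Leaving out each library in turn gave 2 to 14 members higher and 3 to 8 lower, and 525 to 3932 and 1177 to 3929 of all genes. Requiring more than 2-fold left 2 and 3 members, and 806 and 1523 of all genes. At more than 2-fold and an adjusted p under 0.001, edgeR called 0 members higher and 0 lower, and 0 and 0 of all genes. At an unadjusted p under 0.05 and the same fold it called 3 and 3 members, and 967 and 1718 of all genes. At the stricter threshold DESeq2 called 2 and 3 members and 497 and 1238 genes, the MA-plot-based model 3 and 3 members and 1036 and 1774 genes, and limma on log2(FPKM + 1) and on log2(FPKM + 0.1) called 0 members and 0 genes, with 2 to 3 members higher and 3 lower at an unadjusted p under 0.05. Signs turned only for members without a call. *EBP* went to -0.16 with length offsets, -0.045 with length and GC offsets and -0.047 with these and the replicate block. *ACLY* went to 0.15 with length and GC offsets, with or without the block. *LPIN1* went to 0.15, 0.26 and 0.26 in those 3 fits. Over fits without a library, *FDFT1* ran from -0.20 to 0.090, *LSS* from -0.21 to 0.36 and *LPIN1* from -0.34 to 0.024. *NPC1*, *ACAT2*, *NSDHL*, *ACACA* and *FASN* were called in all 16 fits. The cause of these changes was not tested.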

Other observations

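By position, 4 members lie on chromosome 17: *SREBF1*, *ACLY*, *ACACA* and *FASN*. Their median log2 fold change was -1.04, and -0.51 in the offset fit, while the 764 tested genes of that chromosome had medians of -0.03 and 0.06. Chromosome 11 holds *TM7SF2*, *DHCR7*, *FADS1* and *FADS2*, with a member median of -0.37 and -0.19 under the offsets. The 746 tested genes of chromosome 11 had medians of -0.33 and -0.28, and 33.9% of them were lower at an adjusted p under 0.05, beside 20.8% of all genes. The members on chromosome X were unlike each other, with *NSDHL* at 1.60 and *EBP*, which was not called, at 0.15. Their median was 0.87, and 0.72 under the offsets, against -0.07 and -0.03 over the 407 tested genes there. These values describe positions and were not tested.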
